A study of Mus musculus with 10 samples.

Results

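The Hoxc cluster of mouse chromosome 15 holds 9 of the 22380 protein-coding genes of the GENCODE vM1 annotation: Hoxc13, Hoxc12, Hoxc11, Hoxc10, Hoxc9, Hoxc8, Hoxc6, Hoxc5 and Hoxc4, in this order along the plus strand. From the first base of Hoxc13 to the last base of Hoxc4 the cluster spans 116 kb, chr15:102751534-102867274 in mm9. The genes were chosen by name, and a site was counted for a gene when it shared at least 1 bp with the gene body or the 5 kb on either side (the gene's window). Windows of 7 of the 8 neighbouring pairs of genes overlap, so sites were often shared between neighbours and the 9 genes are not independent of each other.

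The study asked whether the Polycomb-like protein Pcl3 directs the repressive complex PRC2 to chromatin in mouse embryonic stem cells (ESCs). It made 10 ChIP-seq libraries, 6 of ChIP and 4 of input DNA, and the values used here are 4 lists of genomic sites with 1 p-value per site. H3K27me3 and Suz12 were profiled in a line named XG122, of genotype Suz12Suz12TAP/+, in which 1 Suz12 allele carries a tag at its own locus and the Flag part of that tag was precipitated. These cells expressed either a scramble shRNA or an shRNA against Pcl3, and each target under each shRNA was read in 1 library. Pcl3 was profiled through a tagged copy (Pcl3-TAP) that the shRNAs cannot recognize, in E14 ESCs that also expressed shRNA 6 or shRNA 7 against Pcl3. These 2 libraries share 1 deposited list, and the sources used here do not say whether their reads were pooled. Pcl3-TAP was added to cells whose own Pcl3 was targeted, so the list gives the binding of the tagged copy.

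The 4 lists hold Suz12 binding sites (scramble cells against input), Suz12-depleted sites (those Suz12 binding sites listed with less Suz12 under Pcl3 shRNA), Pcl3 binding sites (against input) and H3K27me3-depleted sites (scramble against Pcl3 shRNA). The depleted Suz12 list repeats the binding p-value of each site and gives no size of the loss. The paper reports that Pcl3 knockdown also lowered Suz12 mRNA and protein, which it says may account for part of the reduced binding. It also reports more differentiated cells in knockdown cultures. The part of either in the depleted sites was not tested. The lists give no read counts and no values of single libraries, and the depth of the libraries was not analysed here, so no fold change, error or test between conditions could be computed; every value below describes these lists. The deposited p-value of a site, its site p-value, comes from the authors' peak calling by the Skellam distribution. It compares reads of paired samples rather than replicates. For Pcl3, with 2 libraries of ChIP and 2 of input, the sources used here do not say how these were paired. A site p-value grows smaller with the reads, the width and the enrichment of a site together. A site missing from a list is one that did not pass the authors' cutoff at this depth.

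Hox genes encode homeodomain transcription factors that give cells their position along the body axis, and their order along a cluster matches the order of their expression domains. In ESCs the clusters are silent and are classic targets of PRC2, whose core subunits include Suz12 and Ezh2 and which places H3K27me3. Pcl3 (Phf19) is an accessory subunit that associates with the core complex.

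Stretches of 5 sites are shown, in mm9 on the plus strand, which is also the coding strand of all 9 genes, with each CpG in capitals. Each is the 150 bp of its site with the most CpG outside untranslated exons. The first 2 come from the widest Suz12 site and the strongest Suz12 site outside the depleted list. The others come from bases of the widest Pcl3 site that no Suz12 site covered, and from the H3K27me3-depleted sites next to Hoxc10 and within Hoxc4. Chosen for CpG, they do not stand for whole sites. The Hoxc9 stretch holds 18.7 CpG per 100 bp and its site 2.84.
Hoxc9, widest Suz12 site, coding exon, chr15:102812426-102812575: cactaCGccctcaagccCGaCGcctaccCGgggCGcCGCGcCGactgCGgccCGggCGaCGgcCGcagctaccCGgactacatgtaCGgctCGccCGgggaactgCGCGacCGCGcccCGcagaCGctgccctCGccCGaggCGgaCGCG
Hoxc10, Suz12 site outside the depleted list, coding exon, chr15:102801351-102801500: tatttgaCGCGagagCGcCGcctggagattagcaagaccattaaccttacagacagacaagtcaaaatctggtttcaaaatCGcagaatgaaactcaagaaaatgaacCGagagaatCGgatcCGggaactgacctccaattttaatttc
Between Hoxc10 and Hoxc9, Pcl3 without Suz12, chr15:102804509-102804658: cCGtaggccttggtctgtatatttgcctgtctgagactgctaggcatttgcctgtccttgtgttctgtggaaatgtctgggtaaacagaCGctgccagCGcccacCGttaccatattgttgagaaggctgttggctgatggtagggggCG
Upstream of Hoxc10, H3K27me3-depleted site, chr15:102794187-102794336: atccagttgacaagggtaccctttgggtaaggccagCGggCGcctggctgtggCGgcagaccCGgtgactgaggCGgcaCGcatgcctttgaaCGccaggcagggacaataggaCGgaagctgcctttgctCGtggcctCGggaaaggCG
Hoxc4 intron, H3K27me3-depleted site, chr15:102857887-102858036: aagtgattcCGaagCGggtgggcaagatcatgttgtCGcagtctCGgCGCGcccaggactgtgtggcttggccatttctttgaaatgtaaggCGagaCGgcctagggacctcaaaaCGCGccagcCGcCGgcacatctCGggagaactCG
The Hoxc9 stretch holds 28 CpG and the Hoxc10 coding stretch 8. The stretch inside a Pcl3 site but outside Suz12 sites holds 5, and the H3K27me3-depleted stretches hold 11 next to Hoxc10 and 14 in Hoxc4.

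All 9 Hoxc genes had Suz12, Suz12-depleted and Pcl3 sites in their windows, and Hoxc10 and Hoxc4 also had an H3K27me3-depleted site. Over all protein-coding genes, 28.8% had a Suz12 site, 20.6% a Suz12-depleted site, 14.7% a Pcl3 site and 3.13% an H3K27me3-depleted site by the same rule. The windows held 27 Suz12 sites, of which 23 were in the depleted list, 27 Pcl3 sites and 2 H3K27me3-depleted sites. The number of genes with an H3K27me3-depleted site depended on the window, from 0 within 2 kb of the gene start and 1 with the gene body alone to 5 with 10 kb on each side, and was 0 for sites with p-values of at most 1e-12. Of the Suz12 sites, 13 lay in the windows of 2 or more genes, as did 9 of the Pcl3 sites.

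**Figure D1:**
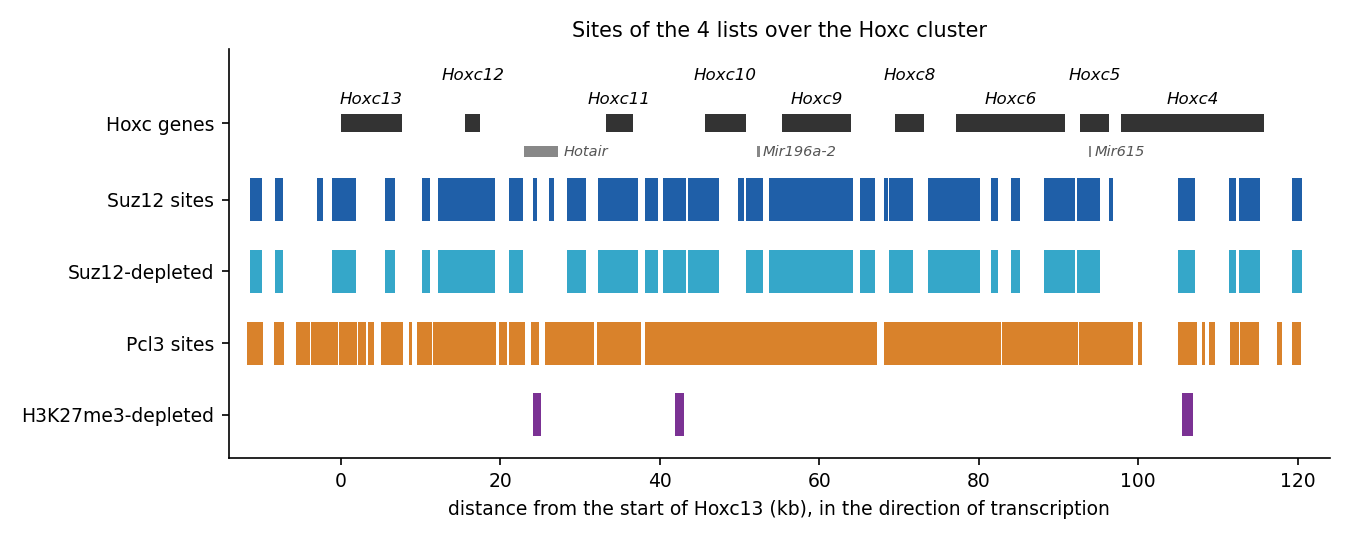
Sites of the 4 lists (bars, to scale) against distance from the start of Hoxc13 in kb, with the 9 genes, Hotair and the 2 microRNA genes above; sites within 15 kb of the cluster are drawn, also those outside the gene windows. Suz12 and Pcl3 sites run through most of the 116 kb, the longest stretch without a Suz12 site lies in Hoxc4 (8.15 kb), and 3 H3K27me3-depleted sites lie apart from each other.

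Suz12 sites covered much of the window of most Hoxc genes, and the windows of the first and the last gene were covered least. The share of the window inside Suz12 sites was highest at Hoxc9, at 83.1%. It was 76.8% at Hoxc12, 76.3% at Hoxc11, 75.2% at Hoxc10 and 73.6% at Hoxc8. These 4 values lie within a few percent of each other, and without replicates no spread is known against which to order them. Hoxc6 and Hoxc5 followed, with 65.4% and 53.6% of the window. The genes at the ends of the cluster were the least covered, Hoxc13 with 37.5% and Hoxc4 with 34.9%. Their windows reach outside the cluster, whereas windows between them take in sites of neighbours. By gene body alone, the share was 100% at Hoxc12, Hoxc11 and Hoxc9. It was 67.9% at Hoxc5, 63.0% at Hoxc8, 56.3% at Hoxc6, 48.5% at Hoxc10, 42.4% at Hoxc13 and 31.6% at Hoxc4. The median of the 9 genes was 73.6%, beside 3.17% for all genes with a Suz12 site. Even for Hoxc4, only 3.94% of the genes with a Suz12 site had as large a share covered.

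**Figure D2:**
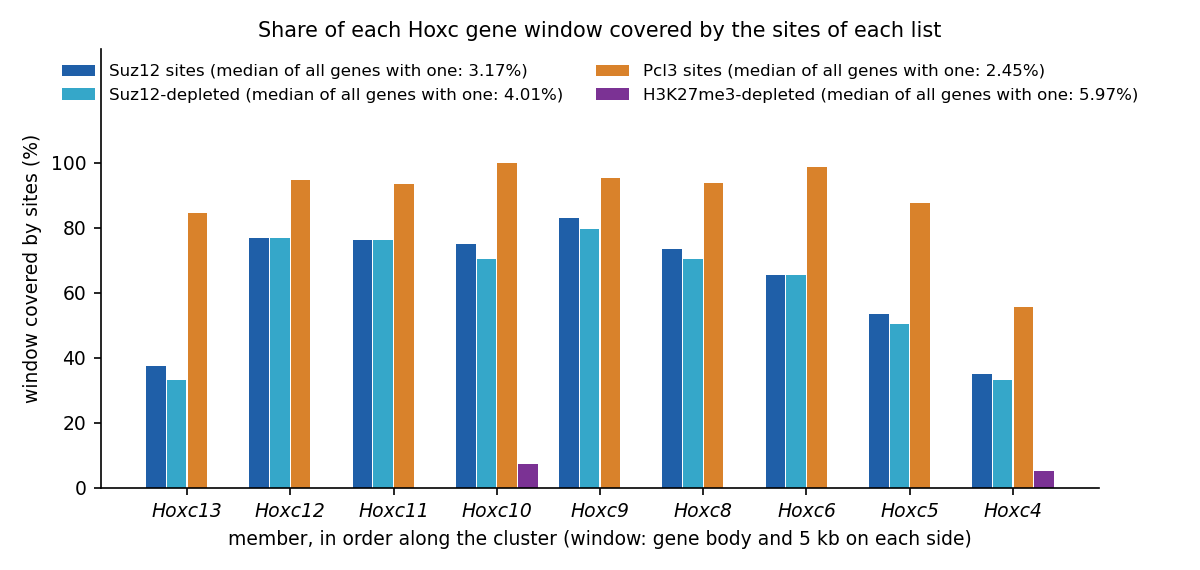
Share of each gene's window, in percent, covered by the sites of each list (bars, 1 value per gene and list, no replicates), in order along the cluster; the legend gives the median over all genes with a site of that list. Suz12 covers 34.9% to 83.1% of the windows and Pcl3 55.8% to 100%, and H3K27me3-depleted sites cover a small share at Hoxc10 and Hoxc4.

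The Suz12 sites over gene starts were among the strongest of the list, at the Hoxc13 end as along the rest of the cluster. Hoxc13, Hoxc12, Hoxc11 and Hoxc10, the members of the cluster nearest its 5′ end, act in the most posterior parts of the body, and Hoxc13 is known for its role in hair and nails. The start of Hoxc13 lay in a Suz12 site of 3050 bp with a p-value of 1.582e-258. It was the weakest of the sites over gene starts, and 6.34% of the list was at least as strong. A weaker site of 1300 bp covered part of the second exon of Hoxc13 (site p-value 4.524e-80). Hoxc12 lay whole inside a site of 7150 bp, and Hoxc11 inside one of 5050 bp, and both sites had a p-value written as 0, below the smallest number the format can hold. The start of Hoxc10 lay in a site of 3900 bp, also with p written as 0.

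Hoxc9 lay whole inside the widest Suz12 site of the cluster, 10550 bp at chr15:102805251-102815800, with p written as 0. Genome-wide, 19 of 8876 Suz12 sites were at least as wide, this one among them. Hoxc8, which acts in thoracic segments, had its start in a site of 3100 bp with a site p-value of 2.754e-295, which covered 63.0% of the gene body. The most upstream start of Hoxc6 lay in a site of 6600 bp with p written as 0. The start of another transcript, Hoxc6-001, lay in a separate site of 3950 bp over the coding exons (site p-value 1.500e-297). Hoxc5 started in a site of 2900 bp with a site p-value of 1.130e-284.

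Hoxc4 differed from the other genes at its annotated start. The gene begins with the transcript Hoxc4-001, whose start lay 1017 bp from the nearest Suz12 site and 2667 bp from the nearest depleted one. It lay inside a Pcl3 site of 3300 bp with a site p-value of 4.628e-97. The start of the second transcript, Hoxc4-002, which has a consensus coding sequence, lay inside a Suz12 site of 2600 bp (site p-value 5.173e-164) that was depleted, and inside a Pcl3 site (site p-value 3.424e-81). Of the 9 gene starts, 8 thus lay inside a Suz12 site, the same 8 inside a depleted one, and all 9 inside a Pcl3 site. Over all protein-coding genes, 18.2% of the gene starts lay inside a Suz12 site, 14.2% inside a depleted one and 7.69% inside a Pcl3 site. The longest stretch of the cluster without a Suz12 site ran over 8.15 kb, from 96.8 to 105.0 kb after the start of Hoxc13, and held the start of Hoxc4-001.

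Coding exons were the part of the cluster most fully covered. Suz12 sites held 98.4% of the coding bases of the 9 genes, 66.4% of the other exon bases, 48.3% of the introns and 65.0% of the bases between genes. For Pcl3 sites the same shares were 100%, 94.3%, 78.6% and 89.9%. The order of the 4 kinds of sequence was the same in both lists, with introns lowest. Coding exons made up 7.45 kb of the cluster, so a few sites decide their share.

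Of the 27 Suz12 sites in the windows, 23 were in the depleted list, beside 64.5% of all Suz12 sites. Every gene had at least 2 depleted sites (from 2 at Hoxc5 to 5 at Hoxc6 and Hoxc4), and all sites of Hoxc12, Hoxc11 and Hoxc6 were depleted. The depleted sites held a median of 70.3% of the windows, beside 4.01% for all genes with a depleted site. The longest stretch without a depleted site was 9.80 kb, again between Hoxc5 and the intron of Hoxc4.

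The 4 Suz12 sites outside the depleted list were the 4 weakest in the windows. They were 450 to 750 bp wide. One lay 2.6 kb upstream of Hoxc13 by its center, at chr15:102748551-102749300 (site p-value 5.542e-13). The strongest covered coding and untranslated bases of the last exon of Hoxc10, at chr15:102801351-102802050 (site p-value 1.529e-13), and its sequence is the second of those shown. Another lay next to the site over Hoxc8, at chr15:102819701-102820150 (site p-value 3.727e-09). The weakest, at chr15:102847901-102848350, lay between Hoxc5 and Hoxc4 (site p-value 1.076e-08). The weakest depleted site, in an intron of Hoxc6, had a site p-value of 1.583e-19, so the binding p-values of the 2 kinds did not overlap in the windows. Across the genome, 14.0% of the 1793 Suz12 sites with p-values in the range of these 4 were in the depleted list, as were 92.6% of the 5319 sites at least as strong as the weakest depleted Hoxc site. The binding p-value of a site thus moved with its place in the depleted list here as it did genome-wide, and whether less Suz12 was lost at weak sites or a loss there could not be detected was not tested.

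**Figure D3:**
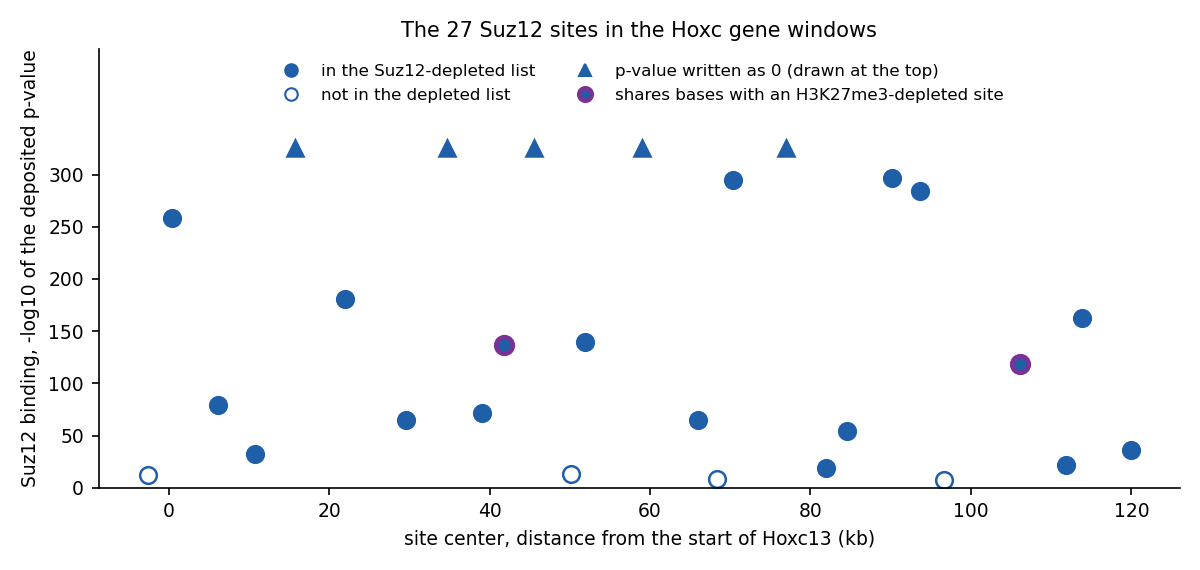
The 27 Suz12 sites of the windows, with the distance of the site's center from the start of Hoxc13 (kb) on the x axis and −log10 of the deposited binding p-value on the y axis; triangles are the 5 sites with p written as 0, which have no value on this axis and stand above it. The 4 open circles, outside the depleted list, lie at the bottom, and the 2 purple outlines, which share bases with H3K27me3-depleted sites, lie at 137 and 119.

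Pcl3 sites covered more of every Hoxc window than Suz12 sites did. The window of Hoxc10 was covered in full by 1 Pcl3 site, and Hoxc6 was covered over 98.9% of its window. Hoxc9 and Hoxc12 had 95.4% and 94.9% covered, Hoxc8 93.8% and Hoxc11 93.6%. Toward the ends the shares fell to 87.8% at Hoxc5, 84.5% at Hoxc13 and 55.8% at Hoxc4. The median of the 9 genes was 93.8%, beside 2.45% for all genes with a Pcl3 site. Hoxc4 and Hoxc13, with the least of their windows covered, had the most Pcl3 sites, 11 and 9, whereas Hoxc10 had 1.

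A single Pcl3 site of 29100 bp, at chr15:102789651-102818750 with p written as 0, reached from downstream of Hoxc11 over Hoxc10 and Hoxc9 to upstream of Hoxc8. It covered 7 Suz12 sites, of which 6 were in the depleted list, and Suz12 sites filled 81.3% of it. The Pcl3 list held 2 sites of this width or more, this one included, and 12 of its 5242 sites (0.229%) lay over 5 or more Suz12 sites. The next site, of 14700 bp, covered Hoxc8 and the upstream part of Hoxc6, and another, of 9600 bp, the rest of Hoxc6. These 3 sites had p written as 0.

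All 27 Suz12 sites of the windows shared bases with a Pcl3 site, and 22 lay inside Pcl3 sites over their whole length. Of all Suz12 sites, 44.3% shared bases with a Pcl3 site. Counted by centers within 2 kb of each other in place of shared bases, 16 of the 27 had a Pcl3 site, the centers of long Pcl3 sites lying away from those of the Suz12 sites under them. No share of all Suz12 sites is given here by centers or by full cover, so these 2 counts cannot be set against the whole list. In the other direction, 17 of the 27 Pcl3 sites shared bases with a Suz12 site and 10 did not, a share of 37.0% beside 23.1% of all Pcl3 sites. These 10 were narrow, with a median width of 675 bp against 2750 bp for the other 17. Their median −log10 p was 11.5 against 145. They lay a median of 1251 bp and at most 3201 bp from the nearest Suz12 site. Gaps between Suz12 sites of the cluster had a median of 1275 bp and were at most 8.15 kb, so sites in these gaps cannot lie far from Suz12. Genome-wide, the 1213 Pcl3 sites without Suz12 lay a median of 2501 bp from the nearest Suz12 site. Both medians depend on the spacing of Suz12 sites, so their difference says little about the Pcl3 sites. The strongest of the 10, of 1850 bp, lay upstream of Hoxc13 (site p-value 5.147e-62). Others fell into the intron of Hoxc13, the bases between Hoxc12 and Hotair, and the introns of Hoxc4, where Suz12 sites were sparse.

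Bases inside Pcl3 sites but outside Suz12 sites were poor in CpG. Some of them lie in gaps between Suz12 sites under a wide Pcl3 site. A base outside the Suz12 list is one where no call passed the cutoff, so Suz12 may still be present there. Within the cluster, 69.9 kb lay in sites of both lists, with 3.15 CpG per 100 bp. Another 30.4 kb lay in Pcl3 sites alone, with 0.702 CpG per 100 bp. The 15.1 kb in neither list held 0.464, and the whole cluster 2.15. The GC content followed the same order, at 52.3%, 45.2% and 41.8%. By site, the 10 Pcl3 sites without Suz12 had a median of 0.862 CpG per 100 bp (from 0.308 to 1.80), and the 17 with Suz12 had 2.48. Across the genome these medians were 1.33 and 6.15.

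**Figure D4:**
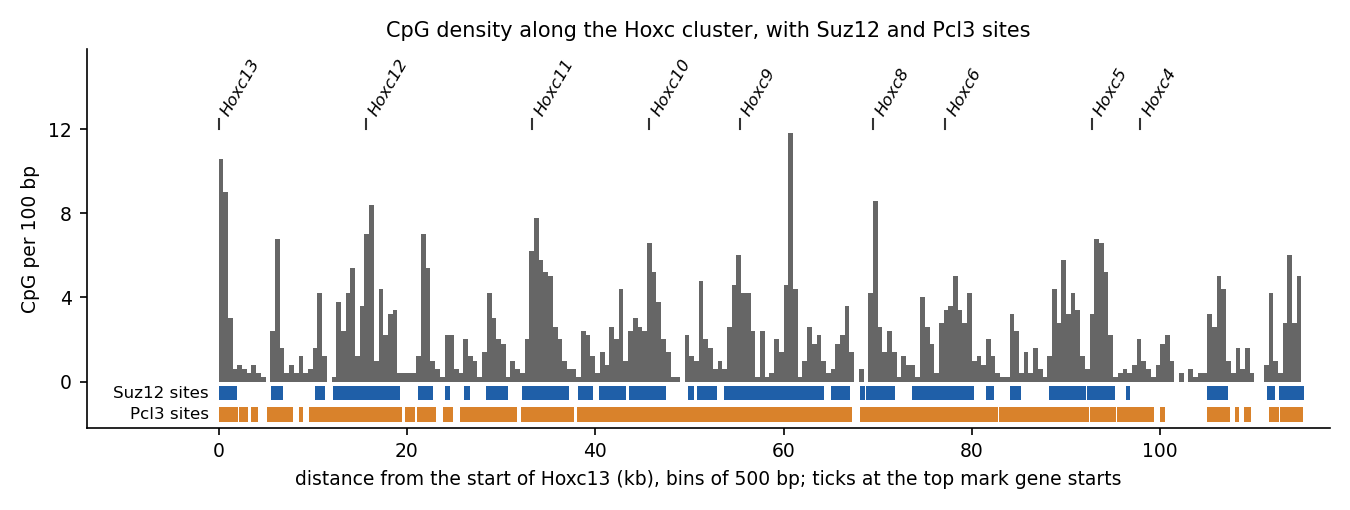
CpG per 100 bp in bins of 500 bp (bars) against distance from the start of Hoxc13 in kb, with Suz12 and Pcl3 sites drawn below and gene starts marked above. The highest bin, of 11.8 CpG per 100 bp, lies in Hoxc9, the next at the start of Hoxc13. The bases in Pcl3 sites but outside Suz12 sites are the low stretches between peaks.

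The Hoxc sites were wide and strong but not rich in CpG. The 27 Suz12 sites had a median width of 2100 bp, against 1100 bp for all Suz12 sites, and a median −log10 p of 119 against 26.2. Their median CpG density was 3.07 per 100 bp, against 5.41 for all Suz12 sites. The 27 Pcl3 sites had a median width of 1950 bp against 850 bp, and a median CpG density of 1.96 against 5.32. A wide site takes in bases beyond its CpG-rich center, and the density of equally wide sites was not compared. The hexamer GCGCGC, which reads the same on both strands, occurred in the 500 bp around the center of 2 of the 27 Suz12 sites (7.41%) and of 134 of the 392 Suz12 sites of chromosome 15 (34.2%). For Pcl3 the counts were 3 of 27 (11.1%) and 69 of 225 (30.7%). The 500 bp take in a smaller part of a wide site, and the hexamer was not counted over whole sites.

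CpG density at the gene starts fell from one end of the cluster to the other, with exceptions. In the 1000 bp around the start it was 7.50 CpG per 100 bp at Hoxc13, 6.80 at Hoxc12, 5.60 at Hoxc11, 4.90 at Hoxc10, 5.20 at Hoxc9 and 6.50 at Hoxc8. It was 3.30 at Hoxc6, 3.00 at Hoxc5 and 1.70 at the start of Hoxc4-001. The median of all protein-coding genes was 4.00, so the 3 genes at the Hoxc4 end lay below it and the other 6 above. The start with the lowest density, that of Hoxc4-001, was the one outside Suz12 sites, and the starts of Hoxc5 and Hoxc6 lay in strong Suz12 sites at densities under the median. These values depend on the transcript, as each start is the most upstream annotated one. The start of Hoxc4-002 lay in a Suz12 site, in a 500 bp bin of 2.80 CpG per 100 bp between bins of 0.400 and 6.00.

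The cluster span held 3 H3K27me3-depleted sites, and none covered the start of a Hoxc gene. Over all protein-coding genes, 0.599% had their start in such a site, so their absence at 9 starts says little. The site next to Hoxc10, chr15:102793451-102794550, lay 2677 bp before the gene's start, between Hoxc11 and Hoxc10 (site p-value 1.253e-07). It was among the weakest of its list, of which 98.8% of the 678 sites were at least as strong. Its p-value is slightly larger than the cutoff the paper states for calling windows. The paper recomputed p-values after joining windows. It lay within a depleted Suz12 site of 2850 bp with a site p-value of 1.716e-137. The site in Hoxc4, chr15:102857001-102858450, lay in an intron of Hoxc4-001 (site p-value 1.267e-10), and 30.7% of the list was at least as strong. It lay within a depleted Suz12 site of 2200 bp with a site p-value of 1.560e-119. Sequences of both are shown above. These were 2 of the 27 Suz12 sites of the windows, a share near the 6.89% of all Suz12 sites. The other 25 Suz12 sites, the 5 with p written as 0 among them, shared no base with an H3K27me3-depleted site, which says only that no drop in H3K27me3 passed the cutoff there. The level of H3K27me3 in scramble cells is not given by this list.

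The third H3K27me3-depleted site of the cluster, chr15:102775651-102776650 (site p-value 9.914e-08), lay outside all 9 windows, over an exon of Gm16258. Its p-value lies just under the cutoff the paper states for calling windows. Gm16258, a noncoding gene between Hoxc12 and Hoxc11, runs on the minus strand, and RefSeq lists Hotair among its synonyms. Hotair is a long noncoding RNA described as acting on other Hox loci. The H3K27me3-depleted site overlapped a weak Suz12 site of 550 bp (site p-value 2.947e-09) that was not in the depleted list. It also overlapped a Pcl3 site of 1100 bp (site p-value 2.297e-29). A second weak Suz12 site in Gm16258, of 600 bp (site p-value 4.735e-10), was also outside the depleted list. The start of Gm16258 lay 601 bp from the nearest Suz12 site.

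Both microRNA genes of the cluster lay inside strong sites. Mir196a-2, at chr15:102803772-102803881 between Hoxc10 and Hoxc9, lay in a depleted Suz12 site of 2100 bp (site p-value 1.279e-140) and in the Pcl3 site of 29100 bp. Mir615, at chr15:102845341-102845432 in the intron of Hoxc5, lay in the depleted Suz12 site at the start of that gene (site p-value 1.130e-284). Their mature forms from RefSeq (GRCm38.p6) are shown because they are the small RNAs made from these bound genes, with the seed (bases 2 to 8) in capitals.
mmu-miR-196a-5p: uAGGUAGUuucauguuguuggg
mmu-miR-196a-2-3p: uCGGCAACaagaaacugccuga
mmu-miR-615-5p: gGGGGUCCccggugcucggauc
mmu-miR-615-3p: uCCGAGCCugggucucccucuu
The 4 seeds differ from each other. The 5p arm of miR-196a is known to target Hox messages, Hoxb8 among them.

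The Hoxc cluster was set beside the Hoxa, Hoxb and Hoxd clusters, each taken from the first to the last base of its Hox genes. Suz12 sites covered 60.8% of the Hoxc span, 71.8% of Hoxa, 53.1% of Hoxb and 62.3% of Hoxd. Suz12-depleted sites covered 58.4% of Hoxc, 67.8% of Hoxa, 48.0% of Hoxb and 56.6% of Hoxd. Of the Suz12 sites in these spans, 22 of 27 were depleted in Hoxc, 19 of 25 in Hoxa, 28 of 39 in Hoxb and 22 of 30 in Hoxd. These 27 are not the 27 of the gene windows. The span takes in the weak sites in Gm16258 and leaves out sites upstream of Hoxc13 and beyond Hoxc4. Hoxc lay between the others in both shares of the span, and its share of depleted sites, 81.5%, was the highest of the 4. With 1 list per comparison these differences were not tested.

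Pcl3 sites reached farther beyond Suz12 sites in Hoxc than in the other clusters. They covered 86.6% of the Hoxc span, 88.4% of Hoxa, 66.8% of Hoxb and 79.0% of Hoxd. The bases in Pcl3 sites alone made up 26.2% of Hoxc, 17.2% of Hoxa, 14.5% of Hoxb and 17.3% of Hoxd. Pcl3 sites held 1.43 times as many bases as Suz12 sites in Hoxc and 1.23 to 1.27 times in the other 3, whereas over the whole genome the ratio was 0.602. These sums depend on how much was called in each library, and their difference was not tested. The bases in both lists held 3.15 CpG per 100 bp in Hoxc and 3.08 to 4.02 in the other clusters, and the bases in Pcl3 sites alone held 0.702 CpG per 100 bp in Hoxc and 1.01 to 1.09 in the others.

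**Figure D5:**
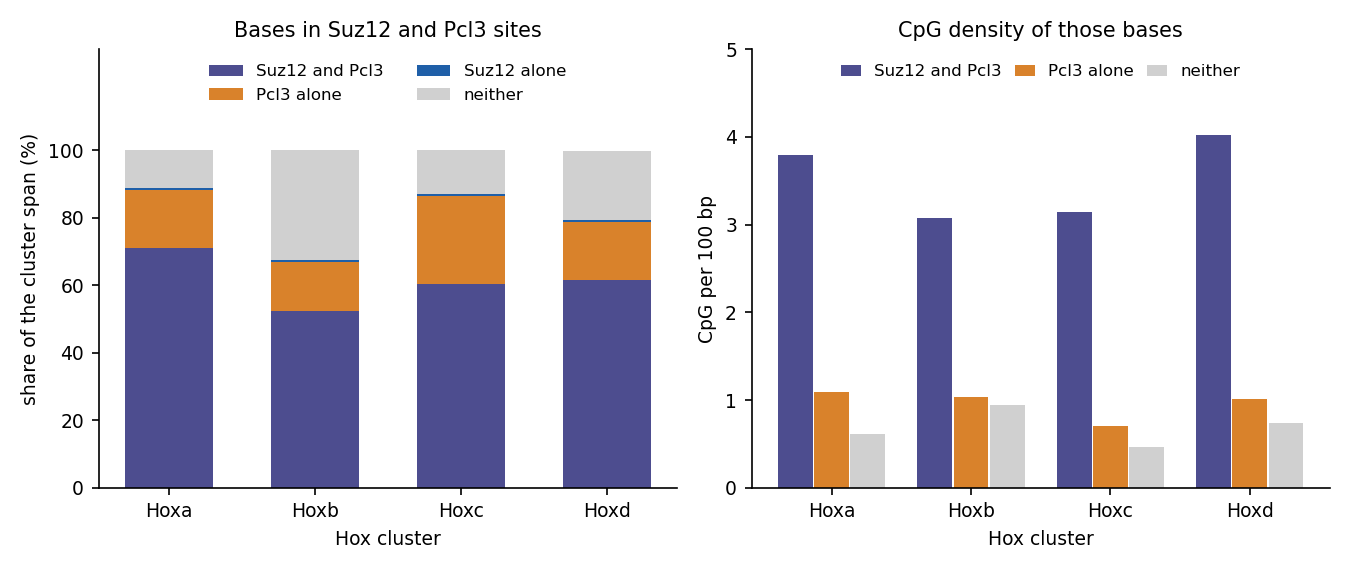
Left, share of each Hox cluster's span (percent, stacked bars) in Suz12 and Pcl3 sites, in Pcl3 sites alone, in Suz12 sites alone and in neither; right, CpG per 100 bp of these bases, Suz12 alone left out as it covers under 1% of each span. Pcl3 alone makes up 26.2% of Hoxc and 14.5% to 17.3% of the others, and its bases hold 0.702 CpG per 100 bp in Hoxc.

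H3K27me3-depleted sites covered 3.07% of the Hoxc span with 3 sites, 7.06% of Hoxa with 5, 15.0% of Hoxb with 15 and 1.19% of Hoxd with 1. Genes with such a site in their window numbered 2 of 9 in Hoxc, 7 of 11 in Hoxa, 8 of 10 in Hoxb and 2 of 9 in Hoxd. The clusters lie on different chromosomes, and the share of Suz12 sites with an H3K27me3-depleted site was 9.18% on chromosome 15 (Hoxc), 3.56% on chromosome 6 (Hoxa), 17.7% on chromosome 11 (Hoxb) and 5.45% on chromosome 2 (Hoxd). The part of the chromosome in the difference between Hoxb and Hoxc was not tested.

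Sites were sparser beyond the edges of the cluster than within it, where Suz12 sites covered 60.8% of the span. In the 199 kb from Hoxc13 to Calcoco1, the next protein-coding gene apart from the short model Gm17649 beside Hoxc13, Suz12 sites covered 4.06%. They covered 8.54% of the 116 kb from Hoxc4 to Smug1, which encodes a uracil-DNA glycosylase. These shares include bases of sites already counted in the windows of Hoxc13 and Hoxc4. They were not set beside the share of the whole genome. Beyond those windows, the first stretch held 5 Suz12 sites, 3 of them depleted, and the second 5, all depleted. Neither stretch held an H3K27me3-depleted site, which says little, as that list has only 678 sites in the whole genome. The windows of Calcoco1, Atp5g2, Smug1 and Cbx5, which encodes a heterochromatin protein, held no site of any of the 4 lists.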

How the data were processed

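ChIP-seq libraries of mouse ESCs were made by the authors for H3K27me3, Suz12-TAP and Pcl3-TAP, with input DNA. The authors aligned reads to mm9 with bowtie, kept unique alignments, equalized the background of paired libraries, scanned the genome by Skellam statistics and merged neighbouring windows that passed their cutoff. The deposited values are 1 p-value per site, and sites of repeated sequence may be missed through unique alignment. Equalized background assumes like background in both libraries, so a copy number difference would appear as depletion. Totals per library were not analysed here. The 2 Pcl3-TAP libraries have different shRNAs, and the title of 1 input names only Pcl3-shRNA where another label field names shRNA6.

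Sites (1-based, mm9) were overlapped with GENCODE vM1 genes and the NCBIM37 sequence in Python 3.11.15 with numpy 2.4.6; 0 of 600 simulated windows differed from a search of every pair. Joined sites under 1 kb apart, other flanks, a p-value of at most 1e-12, site centers and coding transcripts were tried. The members and gene lists were chosen with earlier results of these data known. All members were named, with all their sites, the noncoding genes between them and the nearest neighbours; the gene of the strongest or widest site of a kind decided the sequences printed, in place of promoters. The RefSeq promoter table holds 1 of the 9 members, whose bases lie in an untranslated exon in mm9, so no promoter is printed. No test was run, since each list gives 1 p-value per site and no values of single libraries; Pcl3-TAP and its input have 2 libraries each and every other condition 1.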

Additional observations from a re-analysis of the deposited data

How the results depend on the processing

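Of 45 recomputed values, 23 moved by less than the limit set for them and 22 by more. For counts the limit was a ratio of 1.5, whereas percents were labelled as moved at small shifts, such as 20.6% to 20.0%. All 9 members kept a Suz12, a Suz12-depleted and a Pcl3 site with other flanks, site centers, coding transcripts and p-values of at most 1e-12. The exception was within 2 kb of a start, where 8 had a depleted site. Members with an H3K27me3-depleted site numbered 1 with the gene body alone, 5 with a flank of 10 kb, and 0 within 2 kb of a start or at p-values of at most 1e-12. With the gene body alone, 25.0% of all genes had a Suz12 site, 18.2% a depleted, 12.7% a Pcl3 and 2.28% an H3K27me3-depleted site; at p-values of at most 1e-12 these were 23.6%, 20.0%, 10.3% and 0.630%. At that cutoff the sites covered 59.0% (Suz12), 84.8% (Pcl3) and 0% (H3K27me3-depleted) of the span, and with 5 kb added on each side 58.4%, 55.6% (Suz12-depleted), 84.9% and 2.82%. Joining Suz12 sites closer than 1 kb left 17, of which 15 held a depleted site and 17 shared bases with Pcl3; by centers within 2 kb, 16 of 27 had a Pcl3 site. No paired analysis was possible because each list holds 1 p-value per site for the comparison and no columns of single libraries, and for the same reason no library could be left out. Unknown depth limits what absence from a list means.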

Other observations

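The same window rule was applied to genes that work with Hox proteins or regulate them. Of 12 Hox cofactors and upstream regulators, 8 had a Suz12 site, among them Meis1 and Pbx3, whose proteins bind DNA together with Hox proteins, and Cdx1, Cdx2 and Cdx4, which activate Hox genes. The same 8 had a Suz12-depleted site, 7 had a Pcl3 site (Meis3 did not), and 2, Meis1 and Cdx2, had an H3K27me3-depleted site. Of 6 pluripotency genes, Klf4 and Esrrb had a Suz12 and a Suz12-depleted site, Sox2 and Esrrb a Pcl3 site, and none an H3K27me3-depleted site. Pou5f1, Nanog and Zfp42 had no site in any of the 4 lists. Of 9 genes of PRC2 and its partners, 1 had a Suz12, a Suz12-depleted and a Pcl3 site, namely Phf19, the gene that encodes Pcl3 itself. By the same rule 28.8% of all protein-coding genes had a Suz12 site, 20.6% a depleted one, 14.7% a Pcl3 site and 3.13% an H3K27me3-depleted site, and the 2 of 6 pluripotency genes with Suz12 lie near that share. These lists were chosen with earlier results known, and their counts were not tested.

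Outside the cluster, 1 depleted Suz12 site of 1300 bp lay over an exon of the noncoding gene D930007P13Rik, at chr15:102976651-102977950 (site p-value 2.064e-64), 109377 bp beyond the last base of Hoxc4. A Pcl3 site of 1050 bp lay within it (site p-value 8.415e-29).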
